A study of Cavia porcellus with 24 samples.

Results

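The CpGs described here were methylated on roughly 1 of every 2 reads in both the hippocampus (HPC) and the whole blood (BL) of juvenile female guinea pigs, the level that an imprinted region would have. They were chosen from the reads of the minus strand, as the CpGs with 35 to 65% methylation (methylated reads over all reads) in all 4 pools of animals. A CpG reads the same on both strands. Its cytosine on the plus strand, counted on separate reads from the same animals, gave a measure that the choice did not use. Of 506034 CpGs listed on both strands in both tissues, 424936 had 30 or more reads on each strand in all 4 pools, and 6879 of these (1.62%) were chosen. They are called half-methylated below, and every level, cluster and difference is from the plus strand unless the minus strand is named.

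DNA methylation was measured by reduced representation bisulfite sequencing (RRBS), which reads CpG-rich fragments of the genome after unmethylated cytosines have been converted. The pregnant Hartley guinea pigs received saline (Con) or betamethasone, a synthetic glucocorticoid (sGC), at 1 mg/kg in 3 courses that began on gestational days 40, 50 and 60. At postnatal day 14, 1 female offspring per litter was sampled, 6 per group, and the hippocampus and the blood came from the same 12 animals. The deposited tables hold the reads of the 6 animals of a group summed, so the 24 samples give 4 pools (sGC HPC, Con HPC, sGC BL and Con BL), with no spread between animals. All animals were female, the blood was whole blood and the hippocampus was unsorted, so every level is a mean over cell types as well as over animals.

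At an imprinted region, the copy from 1 parent carries methylation and the other does not, in nearly every tissue, since the mark is set in the germ line and kept through development. Females also methylate CpG islands on the inactive X chromosome, in which case the copy that is methylated differs from cell to cell. A level near the middle can in addition arise where only a share of the cells, or of the animals, is methylated, or where the methylation follows the sequence of the allele. Summed reads without the alleles cannot tell these apart, and the genes at the half-methylated CpGs were not analysed here.

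The reads of the plus strand showed the same intermediate level in all 4 pools. The median methylation of the 6879 half-methylated CpGs was 49.4% in sGC HPC (interquartile range 42.6 to 56.8), 47.7% in Con HPC (40.4 to 55.3), 50.5% in sGC BL (43.2 to 58.1) and 51.1% in Con BL (43.8 to 58.0). Over all 424936 CpGs, the medians were 71.2%, 69.2%, 84.7% and 82.6%, in the same order, with a peak of CpGs close to 0 and another close to 100%. Between 35 and 65% lay 85.2%, 82.7%, 85.7% and 85.9% of the half-methylated CpGs, against 10.9%, 10.8%, 6.31% and 6.75% of all CpGs. The median number of reads behind a plus-strand level at these CpGs was 118, 107, 126 and 99. A level of 50% has a counting error of 4.72 percentage points at the median depth, and the SD over CpGs within a pool was 11.04 to 11.5 points.

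**Figure D1:**
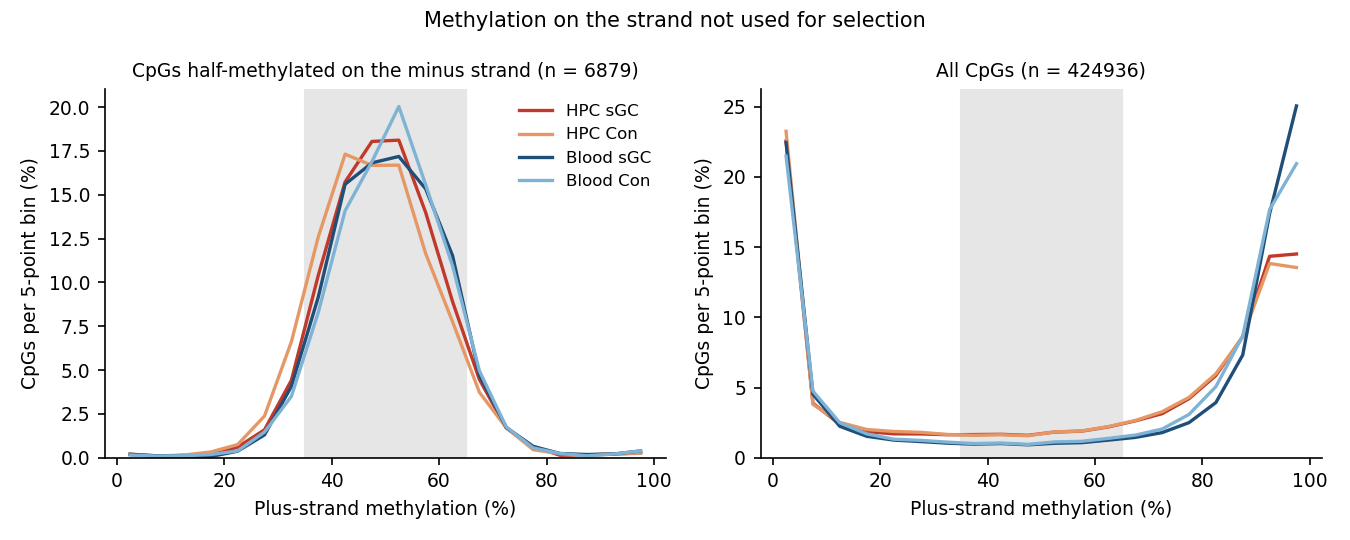
Distribution of plus-strand methylation (x axis, %) in bins of 5 points (y axis, % of CpGs) for the 6879 CpGs chosen on the minus strand (left) and for all 424936 CpGs (right), with a line for each of the 4 pools and the range from 35 to 65% in gray. The chosen CpGs form 1 peak around the middle in every pool, whereas all CpGs pile up at both ends.

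A CpG that was half-methylated on 1 strand was mostly so on the other. On the plus strand, 4182 of 6879 CpGs (60.8%, Wilson 95% interval 59.6 to 61.9, counting error only) lay between 35 and 65% in all 4 pools, and a further 1697 (24.7%) in 3 of the 4. Of all 424936 CpGs, 7099 (1.67%) lay in that range in all 4 pools on the plus strand. With the range widened to 30 to 70%, all 4 pools lay inside it at 5778 CpGs (84.0%). The mean level over the pools was within 10 points of the minus strand at 6422 CpGs (93.4%), with a median distance of 3.16 points, and the plus strand was the higher one at 3471 (50.5%). Few CpGs departed strongly: 138 (2.01%) were over 20 points from the minus strand, 24 were under 20% in all 4 pools and 47 were over 80% in all 4.

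The range used for the choice has no natural edge in these data. The 1172 CpGs that lay inside it by no more than 1 point had a median level of 49.6% on the plus strand, and 506 of them (43.2%) lay between 35 and 65% in all pools. The 1122 CpGs that missed it by no more than 1 point had a median of 50.5%, and 432 (38.5%) did so. Among the 2302 CpGs over 5 points inside, the share was 75.2%.

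The half-methylated CpGs were also similar in level between the tissues. Blood less hippocampus, averaged over both groups, had a median of 2.02 points, and 4511 CpGs (65.6%) differed by less than 10 points in either direction. The choice put both tissues into the same range on the minus strand, so this is a description and not a finding about the tissues. Over all CpGs, which pile up near 0 and 100%, 71.9% were within 10 points. The agreement between tissues differed with the setting: 58.2% of CpGs that stood alone were within 10 points, 82.7% of those in clusters of 5 or more, and 94.9% of those on scaffold DS563011.1.

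About 1 in 2 of the half-methylated CpGs had no other one near. Joined over gaps of up to 200 bp, they made 4608 clusters, of which 3495 held a single CpG (50.8% of the CpGs), 975 held 2 to 4 (34.4%) and 138 held 5 or more (14.8%, 1017 CpGs on 79 scaffolds). The number of measured CpGs within 100 bp (the CpG itself included) had a median of 11 in clusters of 5 or more, 3 for lone CpGs and 4 for all CpGs, a contrast that the definition of a cluster in large part sets. The share that was half-methylated on the plus strand in all pools was 56.0% for the lone CpGs, 63.5% in clusters of 2 to 4 and 70.9% in clusters of 5 or more. The reads were 75 bp long, so that neighbouring CpGs of a cluster are often read on the same fragments and do not count as separate measurements.

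Of the 3495 lone CpGs, 2747 had other CpGs within 200 bp, 11309 in all. None of these neighbours was chosen on the minus strand, since a chosen one would have made a cluster, so their levels are a description that this definition in part sets. On the plus strand, 563 of them (4.98%) were between 35 and 65% in all pools, compared with 2917 of all 418057 CpGs that were not chosen (0.698%). The neighbours had a median level of 57.4% with an interquartile range of 27.3 to 77.8%. By level, 16.8% of them were under 20%, 61.4% between 20 and 80%, and 21.8% over 80%.

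The clusters of 5 or more ranged from even to mixed methylation. In 130 of the 138 clusters, the mean over the chosen CpGs lay between 35 and 65% in all 4 pools. Their spans also hold 973 CpGs that missed the choice on the minus strand, and 136 of these (13.98%) were half-methylated on the plus strand in all pools, with a median level over all 973 of 35.3%. In 32 clusters, 80% or more of all CpGs of the span were half-methylated on the plus strand, and in 13 every CpG was. Of the 32, 9 lay on scaffold DS563011.1.

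Scaffold DS563011.1 held the cluster with the most CpGs and 3 more of the first 12. The scaffold had 136 half-methylated CpGs among 1705, and 125 of them lay between positions 1109145 and 1156720 (positions as the deposited tables list them, build cavPor3), a stretch of 47576 bp in which 183 CpGs were measured. In the stretch 68.3% of CpGs were chosen and 84.7% were half-methylated on the plus strand in all 4 pools, and on the rest of the scaffold these shares were 0.723% and 0.920% of 1522 CpGs. The stretch was singled out after its values were seen, so no test was made of it. Its CpGs fall into 4 main blocks with long runs of unmeasured sequence and a few CpGs of other levels between them.

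The block with the most CpGs, from 1122919 to 1125905, was even across its whole length. On the plus strand, 82 of its 83 CpGs were half-methylated in all pools, including all 22 that the minus strand had not selected. The mean level was 48.2% (SD over CpGs 5.03) in sGC HPC, 49.1% (4.57) in Con HPC, 47.1% (5.51) in sGC BL and 50.5% (5.54) in Con BL. With sGC exposure, 51 CpGs were lower and 31 higher in HPC, and 55 were lower and 27 higher in BL, where the mean difference was -3.41 points, and 0 of them were called.

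The block from 1155604 to 1156720 was alike, with 43 of 46 CpGs half-methylated on the plus strand and 13 of the 14 unselected ones among them. Its means were 46.8% in sGC HPC, 43.1% in Con HPC, 43.5% in sGC BL and 47.3% in Con BL. The first block, from 1109145 to 1111605, had 23 of 35 CpGs in the range in all pools and means of 49.3%, 42.7%, 43.2% and 43.6%, in the same order. Its first CpGs left the range in some pools: at position 1109145 the level was 49.1% in sGC HPC, 30.7% in Con HPC, 34.5% in sGC BL and 25.8% in Con BL. The remaining block, from 1120422 to 1121911, was uneven, with 6 of 9 CpGs in the range and the others as low as 5.88% in Con BL.

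Between and beside the blocks, some CpGs were almost fully methylated or almost unmethylated in all pools. The 2 CpGs at 1132262 to 1132264 were at 93.4%, 97.6%, 96.2% and 93.6% in sGC HPC, Con HPC, sGC BL and Con BL. The 5 CpGs from 1167811 to 1167849, beyond the last block, were at 6.95%, 8.57%, 2.50% and 1.90%. In contrast, the 4 CpGs from 1117058 to 1117505 separated the tissues, at 38.4% and 28.9% in HPC and 85.7% and 75.03% in BL, and so did the pair at 1147869 to 1148000, at 64.3% and 60.4% against 95.2% and 91.8%.

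**Figure D2:**
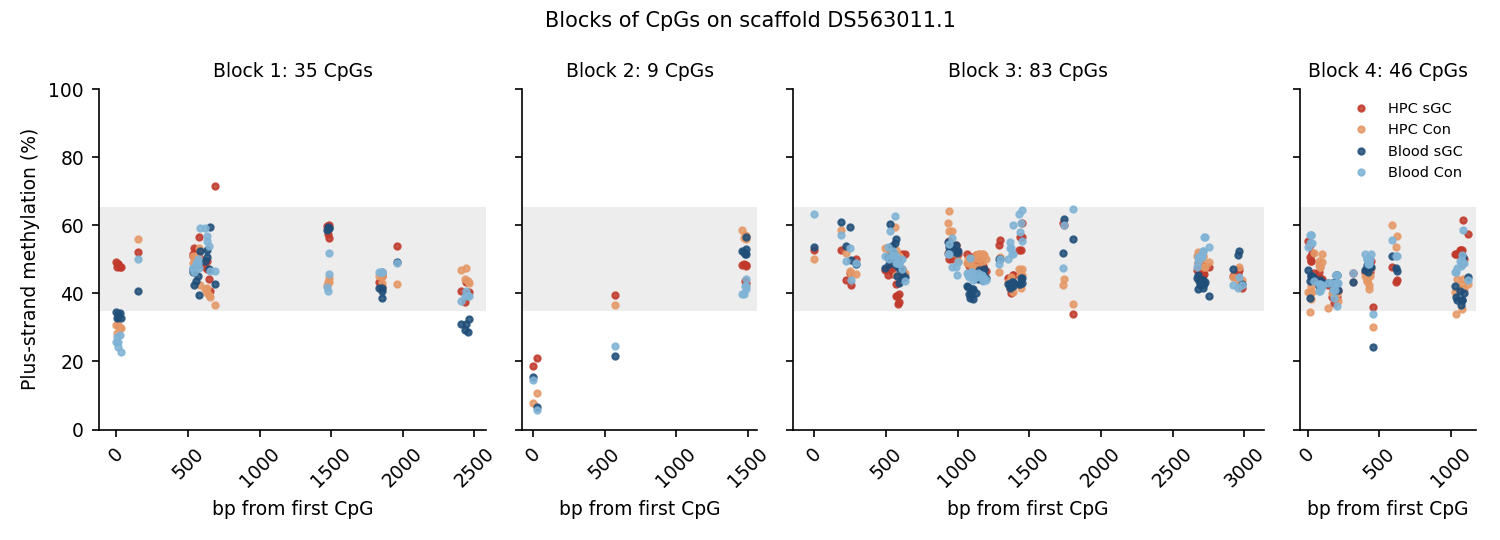
Plus-strand methylation (y axis, %) of every measured CpG in the 4 main blocks on scaffold DS563011.1, against the distance in bp from the first CpG of the block (x axis), with a point for each of the 4 pools and the range from 35 to 65% in gray. Blocks 3 and 4 stay in the range over nearly all of their 83 and 46 CpGs in all pools, and blocks 1 and 2 hold CpGs below it.

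Other large clusters reached similar evenness on a smaller scale. On scaffold DS562897.1, all 15 CpGs between 11904759 and 11905233 were half-methylated on the plus strand, with means of 43.3% (SD over CpGs 4.00) in sGC HPC, 43.6% (1.62) in Con HPC, 48.2% (3.86) in sGC BL and 46.8% (2.85) in Con BL. A further cluster of 14 CpGs on that scaffold, from 12518445 to 12518745, had 11 of 14 in the range and means of 48.7%, 51.9%, 56.8% and 49.2%, in the same order. A cluster of 14 from 13111801 to 13112118 had means of 48.8%, 45.7%, 54.8% and 57.01%, but only 13 of the 31 CpGs of its span were half-methylated. Among the smaller clusters, DS562957.1 had 6 of 7 CpGs in the range from 2179976 to 2180045 and 5 of 6 from 2181648 to 2181682. Of the CpGs over 200 and up to 2000 bp from each, 16 of 19 and 10 of 12 were in the range. Of the scaffold's CpGs that were not chosen, 5.94% lay between 10 and 50%.

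The other clusters among the 12 with the most CpGs were more mixed. On scaffold DS563031.1, 11 of 22 CpGs from 491018 to 491196 were in the range on the plus strand, at means of 56.3%, 60.1%, 53.0% and 52.9% in sGC HPC, Con HPC, sGC BL and Con BL. On scaffold DS562855.1, 18 of 38 CpGs from 62439307 to 62439521 were, at means over the 16 chosen ones of 50.2%, 51.9%, 44.3% and 51.1%. On scaffold DS562871.1, 8 of 15 CpGs from 36322689 to 36322917 were, at 56.6%, 50.5%, 57.02% and 53.6%. In the DS562855.1 cluster, 13 of the 16 CpGs were lower with sGC exposure in the blood, with a mean difference of -6.81 points.

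The remaining 126 clusters had 5 to 12 CpGs and spanned 26 to 625 bp (median 147). Those with 12 were tied with the last of the first 12. Of the CpGs in their spans, 11 of 30 were half-methylated on the plus strand at DS562901.1 (703898 to 704522) and 8 of 21 at DS562914.1 (2714074 to 2714600). At DS563392.1 (8496 to 8612), 14 of 14 were. Their mean levels had medians of 47.2% in sGC HPC, 46.9% in Con HPC, 46.7% in sGC BL and 47.8% in Con BL. The lowest means, 24.7%, 22.1%, 31.6% and 26.7%, all came from the cluster of 7 CpGs from 3190 to 3215 on scaffold DS563782.1. In 6 clusters the median depth was over 300 reads, far above the 112 reads of a typical CpG. The deepest 3 had 4090 at DS563392.1 (8496 to 8612), 3427 at DS564936.1 (660 to 696) and 5710 at DS562861.1 (3016503 to 3016733). Of all 6879 half-methylated CpGs, 42 (0.611%) had a depth over 1000 reads, against 793 of all 424936 (0.187%). Whether copies of a repeated sequence were read as 1 at these places was not tested.

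**Figure D3:**
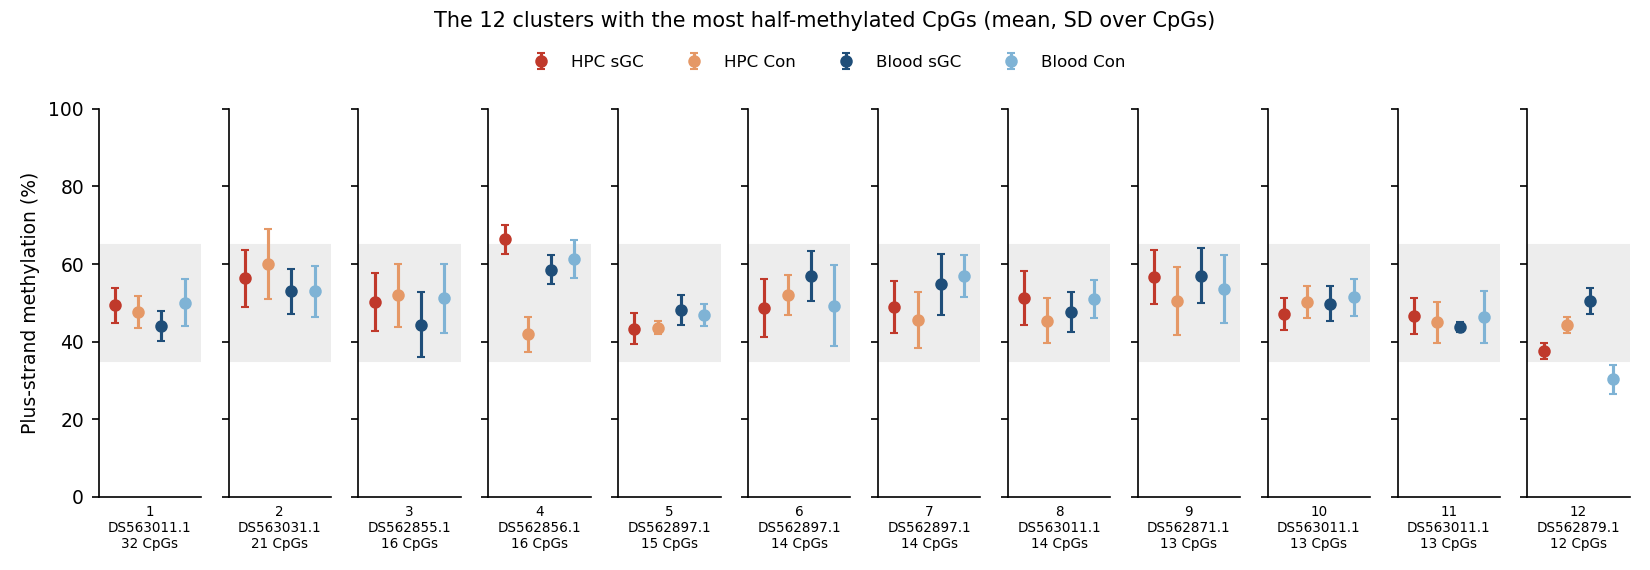
Mean plus-strand methylation (y axis, %) of the half-methylated CpGs in the 12 clusters that hold the most of them, with a point for each pool, bars for the SD over CpGs and the range from 35 to 65% in gray. The last of the 12 was tied in number of CpGs with clusters not shown. In 10 clusters all 4 means lie within the range, more or less close together, whereas in cluster 4 sGC HPC stands above the others and Con HPC below, and in cluster 12 Con BL stands below the range.

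The half-methylated CpGs were unevenly spread over scaffolds. On the 210 scaffolds with 200 or more CpGs, the share of chosen CpGs was 1.41% over 194 of them together (median 1.35%, highest 4.58% on DS562957.1). It was 5.17 to 13.5% on 15 scaffolds, 731 of 7921 CpGs together (9.23%), and 7.98% on DS563011.1. These 15 scaffolds, with 31 of the 138 large clusters, were set apart after the shares were seen, and are described with no test.

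On the 15 scaffolds, intermediate methylation was not confined to the chosen CpGs. Of the 7190 other CpGs there, 54.4% lay between 10 and 50% on the plus strand (27.1 to 78.3% by scaffold), compared with 10.8% of the other CpGs on the 194 scaffolds and 12.0% of those on DS563011.1. Unmethylated CpGs, under 10%, made up 3.96% there and 27.0% on the 194 scaffolds. The pools were alike in this, with 52.6% in sGC HPC, 52.9% in Con HPC, 53.5% in sGC BL and 53.5% in Con BL between 10 and 50%, and the depth was ordinary, at a median of 110.5 reads against 112. The half-methylated CpGs of the 15 scaffolds had a lower median level, 43.1%, than those on other scaffolds, 50.5%. The pattern of DS563011.1, a high share in 1 stretch with ordinary levels around it, was thus unlike that of the 15 scaffolds, where intermediate levels ran through most of the measured CpGs. Which chromosomes these scaffolds belong to was not analysed here.

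**Figure D4:**
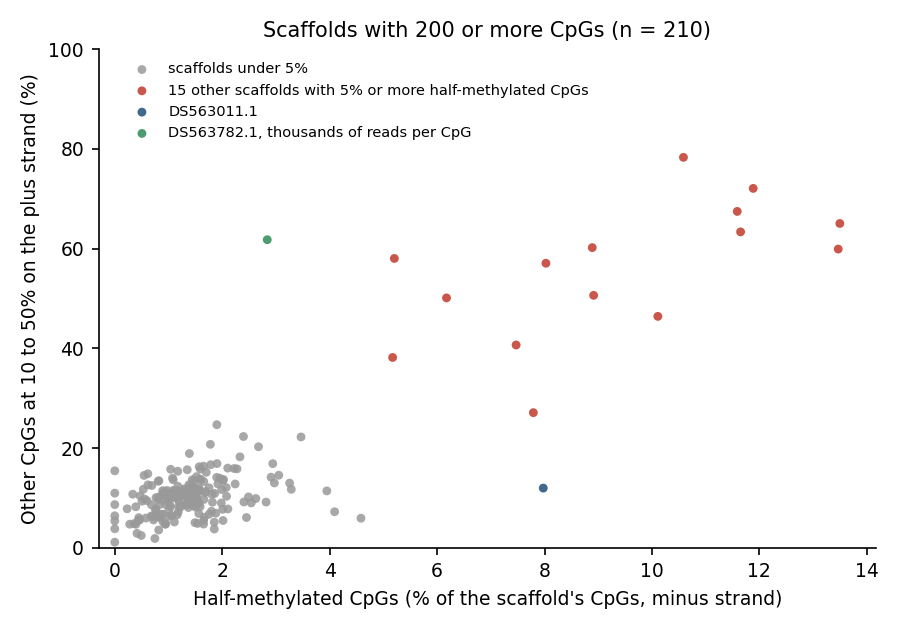
Share of half-methylated CpGs (x axis, % of the scaffold's CpGs, from the minus strand) against the share of the other CpGs that lay between 10 and 50% on the plus strand (y axis, %), with a point for each of the 210 scaffolds with 200 or more CpGs. Of the 16 scaffolds with 5.17% or more chosen CpGs, 15 lie at 27.1 to 78.3% on the y axis, and DS563011.1 lies at 12.0%. DS563782.1, a scaffold with a median depth of 7082 reads, lies at 61.8%.

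The HM13/MCTS2 region, which carries an imprinted gene in other mammals, held 0 of the half-methylated CpGs. The 13 CpGs measured from 1475808 to 1476092 on scaffold DS562863.1 had mean plus-strand levels of 58.7% in sGC HPC, 75.03% in Con HPC, 61.7% in sGC BL and 74.3% in Con BL. On the minus strand, 11 of the 13 in Con HPC and 10 in Con BL were over 65%, against 0 in sGC HPC and 1 in sGC BL, so most of the region missed the choice by the level of the control pools.

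The study compared sGC exposure with saline, and this comparison was made at each half-methylated CpG. Because all 4 pools had to lie within 35 to 65% on the minus strand, CpGs with the largest changes on that strand could not be chosen, so that a low count of changes among them is in part set by the choice. On the plus strand, sGC less Con averaged 1.58 points in HPC and -0.246 in BL, and 58.0% and 48.6% of the CpGs were higher with sGC exposure. Over all CpGs the means were 1.06 and 0.519, and 57.2% and 54.0% were higher. The median size of the difference was 5.06 points in HPC and 5.30 in BL, above the 2.42 and 2.33 of all CpGs, which lie mostly near 0 or 100%, where counting error is small.

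Differences of 10 points or more were seen at 1378 CpGs (20.03%) in HPC and 1475 (21.4%) in BL, compared with 7.74% and 6.33% of all CpGs. The median chi-square of a CpG, divided by the value that counting error alone would give (so that 1 is no excess), was 1.32 in HPC and 1.42 in BL at the half-methylated CpGs, and 1.62 and 1.59 over all CpGs. The 13004 CpGs that were half-methylated in the hippocampus and at 80% or more in the blood had 2.11 and 3.00, and the 1762 of the reverse kind 1.59 and 1.47. On DS563011.1 the ratio was 0.881 and 1.12 over 136 CpGs, many of which share reads. It was also close to 1, at 1.04 and 1.15, for the 4182 CpGs half-methylated on the plus strand in all pools. Being in that range limits their plus-strand differences.

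Changes that passed the test were few. A CpG was called where Fisher's exact test (two-sided) of methylated against unmethylated reads gave an adjusted p (Benjamini-Hochberg over every cytosine listed for the tissue) under 0.05 and the difference was 5 points or more. The test treats reads as independent and compares 2 pools of 6 animals, so it cannot separate exposure from a difference between a few animals or their alleles. In the hippocampus, 13 of 6879 CpGs were called (0.189%), with 0.153% of all 424936 CpGs called on this strand. Higher with sGC exposure were 9 (0.131%, all CpGs 0.104%) and lower were 4 (0.0581%, all CpGs 0.0489%). With each chi-square divided by its inflation over all cytosines of the tissue, 0 were called in HPC (all CpGs 0.028%) and 6 in BL (0.0872%, all CpGs 0.076%). Of the 6, those at 5844 on DS563392.1, 4598 and 5968 on DS563782.1 and 12001 on DS564508.1 had 753 to 7286 blood reads per pool. The others, at 13053853 on DS562897.1 and 4039953 on DS562937.1, had 94 to 233.

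In the blood, 26 were called (0.378%), with 0.484% of all CpGs called. Here 8 were higher with sGC exposure (0.116%, all CpGs 0.297%) and 18 lower (0.262%, all CpGs 0.186%). The called differences ranged from 8.33 to 36.3 points in size in the hippocampus (median 23.9) and from 5.40 to 40.5 in the blood (median 23.7). Alone in their cluster were 8 of the 13 and 16 of the 26, compared with 50.8% of all half-methylated CpGs. None of the called ones lay on DS563011.1, but its 136 half-methylated CpGs are too few to expect a call at these shares. In its stretch of 183 CpGs described above, 1 was called, in the blood (all CpGs 0.484%), at a CpG that had not been chosen.

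The sGC less Con differences of the tissues were compared at each half-methylated CpG. The sign was the same in both tissues at 3590 CpGs (52.2%, Wilson 95% interval 51.01 to 53.4, counting error only), and at 53.4% of all CpGs. Spearman's rho across CpGs was 0.0783, and 0.129 over all CpGs. Among the CpGs called in HPC, 11 of 13 had the same sign in the blood, and among those called in BL, 21 of 26 had it in the hippocampus. The like counts over all called CpGs were not computed, so these are not read as a trait of the half-methylated CpGs. Over all 424936 CpGs, 236 were called in both tissues, and all 236 had the same sign. The CpGs share animals and, within clusters, reads, and are not independent replicates. In the 138 large clusters, 66 had mean differences of the same sign in both tissues.

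**Figure D5:**
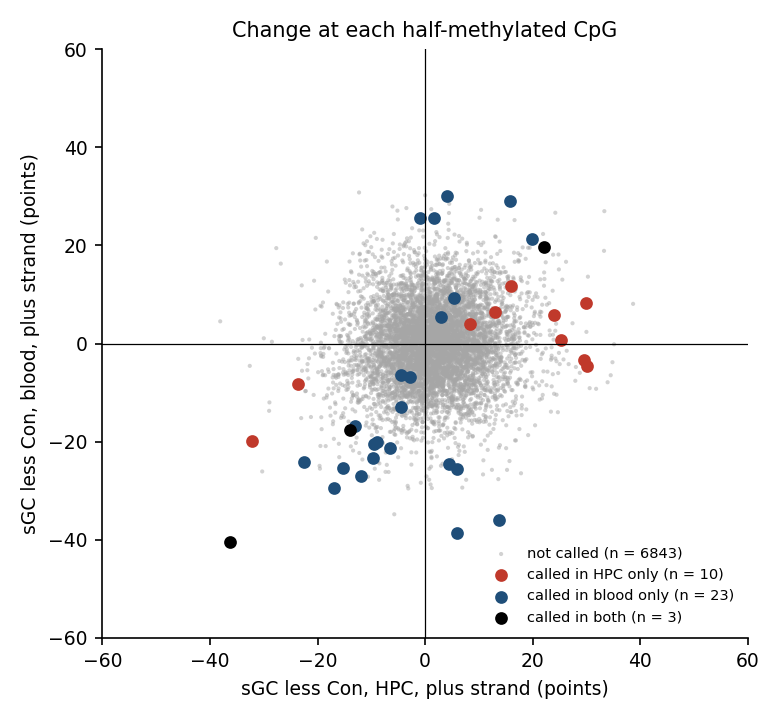
sGC less Con on the plus strand (percentage points) in the hippocampus (x axis) against the blood (y axis), with a point for each of the 6879 half-methylated CpGs. Small gray points did not pass the test, and colored points were called in the hippocampus only (10), the blood only (23) or both (3). The cloud is centered close to 0 on both axes with no clear slope, and the CpGs called in both tissues lie along the diagonal.

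Called with the same sign in both tissues were 3 half-methylated CpGs (0.0436%, all CpGs 0.0555%), 1 higher and 2 lower with sGC exposure. With chi-square divided by the inflation factor, 0 passed in both tissues (all CpGs 0.0169%), and the 2 lower ones passed in BL alone. For these and for the clusters below, minus-strand levels are given as a description only, since the choice held that strand within 35 to 65% in every pool and so limited its differences. At position 49229214 on scaffold DS562857.1, 138 of 224 reads were methylated in sGC HPC (61.6%, Wilson interval 55.1 to 67.7) and 58 of 147 in Con HPC (39.5%, 31.9 to 47.5), a difference of 22.2 points (Fisher's exact test, adjusted p = 0.0306). In sGC BL, 143 of 232 reads (61.6%) were methylated, and in Con BL 76 of 181 (42.0%), 19.6 points apart (Fisher's exact test, adjusted p = 0.0350). The Wilson intervals give counting error only, from the same reads as the test that called this CpG. With chi-square divided by the inflation factor, its adjusted p was 0.98 in HPC and 0.933 in BL, so it passed in neither tissue. The minus strand was at 49.0% and 37.0% in HPC and 56.3% and 38.2% in BL.

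Among the called CpGs, the greatest difference in each tissue was at position 13053853 on scaffold DS562897.1. There 31 of 128 reads (24.2%) were methylated in sGC HPC and 66 of 109 (60.6%) in Con HPC, a difference of -36.3 points (Fisher's exact test, adjusted p = 5.5e-05). In the blood, 35 of 127 (27.6%) and 64 of 94 (68.1%) were methylated, a difference of -40.5 (Fisher's exact test, adjusted p = 4.71e-06). The minus strand was at 39.3% and 54.7% in HPC and 41.8% and 62.8% in BL.

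At position 5844 on scaffold DS563392.1, 54.4% of 987 reads were methylated in sGC HPC and 68.5% of 615 in Con HPC (difference -14.05, Fisher's exact test, adjusted p = 7.66e-05), and in the blood 55.8% of 1040 and 73.3% of 753 (-17.5, the same exact test, adjusted p = 8.87e-11). The minus strand was at 43.1% and 42.9% in HPC and 45.5% and 42.3% in BL, with no lower level with sGC exposure in either tissue. The scaffold had a median depth of 4181 reads.

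The change differed between the tissues at 1 half-methylated CpG (0.0145%, all CpGs 0.0188%), by a normal test of the difference in log odds ratios with Benjamini-Hochberg adjustment over all 424936 CpGs. At position 4598 on scaffold DS563782.1, 18.4% of 5657 reads were methylated in sGC HPC and 21.2% of 6320 in Con HPC, and 11.8% of 7286 in sGC BL and 18.6% of 6334 in Con BL. The sGC less Con difference was -2.87 points for HPC and -6.79 for BL, and the adjusted p of that test on read counts was 0.00124. Its plus strand lay below 35% in all 4 pools, and its minus strand was at 38.2% and 45.7% in HPC and 38.1% and 39.3% in BL, where the difference was greater in HPC. Counting error on the minus strand was not tested at this CpG. Its scaffold had a median depth of 7082 reads.

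Over the 138 clusters of 5 or more, the mean difference had a median of 0.661 points in the hippocampus (-12.6 to 24.5) and -0.439 in the blood (-19.5 to 20.1), and 64 of 138 clusters differed by less than 5 points in both tissues. It reached 10 points in 8 clusters in HPC and 13 in BL.

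The cluster from 66437508 to 66437821 on scaffold DS562856.1 had the greatest mean difference in the hippocampus. Its 16 chosen CpGs averaged 66.4% (SD over CpGs 3.76) in sGC HPC and 41.9% (4.61) in Con HPC, and all 16 were higher with sGC exposure, 3 of them called, of which 0 passed with the inflation factor. In the blood the means were 58.6% and 61.3%, with 14 of 16 lower. The minus strand was at 59.3% and 47.0% in HPC and 58.1% and 50.3% in BL.

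The cluster from 24571695 to 24571812 on scaffold DS562879.1 moved in opposite directions on the plus strand. Its 12 CpGs averaged 37.6% in sGC HPC and 44.4% in Con HPC, all 12 lower, and 50.4% in sGC BL and 30.2% in Con BL, all 12 higher. Of these CpGs 0 were called in either tissue, and the minus strand gave 49.0% and 43.7% in HPC and 47.8% and 42.1% in BL. The whole cluster spans 118 bp and the reads were 75 bp long, so that neighbouring CpGs in it can share reads. How many reads they share was not measured.

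Both tissues differed by 10 points or more with the same sign in 2 clusters, lower with sGC exposure in each. The cluster from 5127789 to 5128053 on scaffold DS562943.1 (8 CpGs) was at 47.9% in sGC HPC and 60.4% in Con HPC, and at 39.7% and 55.6% in the blood. Its minus strand was at 52.3% and 56.3% in HPC and 45.7% and 52.5% in BL. The cluster from 9568377 to 9568526 on scaffold DS562886.1 (6 CpGs) was at 39.3% and 51.6% in HPC and 41.5% and 61.03% in BL, and its minus strand was at 46.9% and 51.2%, and 41.8% and 54.8%. On the plus strand, every CpG of both was lower with sGC exposure in each tissue, and in each cluster 1 CpG was called, in the blood only, and 0 of these calls passed with the inflation factor.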

How the data were processed

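The authors trimmed the 75 bp single-end RRBS reads (Trim Galore), aligned them with Bismark 0.16.0 and sorted them with SAMtools 1.7, per the labels and the study's methods, with positions in build cavPor3. They deposited 1 table per tissue with, for each cytosine and group, the count of methylated reads and the total coverage, summed over 6 animals. Each listed cytosine had at least 10 reads in each group. The tables held 2869370 cytosines for the hippocampus and 2927801 for the blood, with median coverage of 93 (sGC HPC), 86 (Con HPC), 98 (sGC BL) and 79 (Con BL) reads. The authors' column of adjusted p-values for sGC against Con was not used.

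From these, levels, clusters and Fisher's exact tests were computed in Python 3.11.15 (pandas 2.3.3, scipy 1.17.1, numba 0.67.0), tested on simulated data. The single animals and their batches were not separable in sums, so no covariate entered. Regions named are the 12 clusters with the most CpGs, the HM13/MCTS2 region, CpGs called in both tissues with the same sign and CpGs with a tissue difference. The last of the 12 clusters was tied with others that also hold 12 CpGs, and its place was set by the order of listing. DS563011.1, DS562957.1, the 15 scaffolds, the clusters differing by 10 points and single blocks were chosen after their values were seen. The half-methylated CpGs and all lists were chosen with earlier results of these data known. Lists of imprinted and X-linked genes were drawn up but not used, since the gene table at hand is of another assembly.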

Additional observations from a re-analysis of the deposited data

Results flagged for a closer look

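A difference between the tissues drew attention at 1 half-methylated CpG. At position 4598 on scaffold DS563782.1, the sGC less Con change was -2.87 points for HPC and -6.79 for BL, so that blood less hippocampus was -3.92 percentage points. The adjusted p of the normal test of the difference in log odds ratios, over read counts of 5657 or more a pool, was 0.00124. On the minus strand, which was used for the choice, the change was -7.48 for HPC and -1.19 for BL, the greater one in the other tissue. The sign was the same in both tissues, and the depth of 5657 to 7286 reads per pool lets small differences pass a test on reads.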

How the results depend on the processing

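Of 89 values recomputed under other settings, 74 stayed near the main one (counts within 1.5 times, shares within the main share's Wilson interval, median levels within 1 SD over CpGs). The median plus-strand levels did so in 32 of 32, at 47.7 to 51.9%. The share half-methylated on the plus strand in all pools (60.8%) was 58.9% with 20 reads as the minimum, 64.3% with 50, and 58.9% with the strands exchanged. With 40 to 60% as the range it was 39.8%, with 2430 CpGs, 31 clusters of 5 or more and 4 HPC and 9 BL calls. With 30 to 70% it was 71.2%, with 13464 CpGs, 335 clusters and 31 HPC and 63 BL calls. With chi-square divided by the inflation over all cytosines (1.76 for HPC, 1.73 for BL), 0 were called for HPC (all CpGs 0.028%) and 6 (0.0872%) for BL (all CpGs 0.076%), where Fisher's exact test gave 13 and 26, and 625 (9.09%, all CpGs 6.41%) and 634 (9.22%, all CpGs 7.45%) at an unadjusted p under 0.05. Leaving out DS563011.1, chosen after seeing the data, gave 60.1% of 6743 CpGs, 129 clusters and the same numbers of calls. Leaving out the 15 scaffolds too gave 60.4% of 6012, 98 clusters and 13 and 25 calls. Leaving out CpGs above the 99th percentile of reads instead gave 60.8% of 6563, 127 clusters and 9 and 19 calls. No paired analysis was possible because the reads of the animals were summed into 1 value per group. With a counting error of 4.72 points a level, small changes at single CpGs were not detectable at this depth.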
